A study of Mus musculus with 4 samples.

Results

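The genes described here are the immunoglobulin heavy and light chain segments of mouse, the pieces of DNA from which antibody genes are built. They were chosen by symbol alone, as the variable (V), diversity (D), joining (J) and constant segments of the heavy chain, kappa and lambda loci. The rule found 112 of the 14979 genes in the table. They were measured by CAGE, which counts capped RNA 5′ ends (tags), in colon tumours of 4 AOM/DSS mice. In this model the carcinogen azoxymethane is followed by dextran sulfate sodium, a polymer that inflames the colon, and all 4 mice had both treatments. The IgG group had 2 mice given a control IgG antibody, and the MAdCAM1 group had 2 mice given an antibody against MAdCAM-1, a vascular adhesion molecule through which lymphocytes enter the gut wall. Strain, age, sex, antibody dose and the time of sampling are not given in the sources used here. The mice were a selection from each group, and each library is bulk tumour RNA. In bulk RNA, fewer cells of a type and less RNA per cell cannot be told apart.

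An antibody is made of heavy and light chains, and a B cell builds each chain gene by joining V, D and J segments. The promoter lies in front of the V segment, so the 5′ end of a rearranged antibody mRNA marks the V segment a cell chose, while the constant region at the other end sets the isotype. Plasma cells secrete antibody in large amounts, and those of the gut wall mostly make IgA, which is joined into dimers by the J chain encoded by Jchain. V promoters are known for a short motif, the octamer, which is bound by the factors Oct-1 and Oct-2 with their partner OCA-B.

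The 112 genes were 52 Ighv segments (heavy chain V), 52 Igkv segments (kappa V), the lambda V segments Iglv1 and Iglv2, the lambda J segments Iglj1, Iglj2, Iglj3 and Iglj3p, the lambda constant gene Iglc2, and Ighm, the constant gene of IgM. The GENCODE annotation of the same genome build, GRCm39, holds 260 genes of these classes, among them 113 Ighv and 100 Igkv. Igha, Ighd, Ighe, the Ighg genes, Igkc, the D segments, and the heavy chain and kappa J segments were not listed among the genes analysed here. An isotype share and a kappa share of constant region tags were therefore not computed, and the light chain shares below rest on V segments. In a rearranged mRNA the 5′ end lies at the V segment, so tags of constant genes need not reflect isotype or light chain use. Some genes carried the same values in all 4 libraries, so their tags are not separate measurements. Iglc2 equalled Iglj2, which lies inside the annotated Iglc2 gene, Iglj3 equalled Iglj3p, and Ighv1-5 equalled a microRNA gene, mmu-mir-7094-2. How a tag that fits several near-identical V segments was placed is not given in the sources used here, so values of single segments within a V family are uncertain.

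The octamer sets the V segments apart from other genes in sequence, and it is shown first because V promoters are the known start sites of rearranged antibody genes. In the 250 bases before the annotated gene start, read on the gene's own strand from the GRCm39 genome, 48 of the 52 listed Ighv segments (92.3%) held ATGCAAAT and 0 held its reverse complement, ATTTGCAT. Of the 52 listed Igkv segments, 37 (71.2%) held ATTTGCAT, and 1 of these also held ATGCAAAT. Both Iglv segments held ATTTGCAT. Among all 78287 annotated genes, the same window held ATGCAAAT in 1.10% and ATTTGCAT in 0.970%. The annotated V segments not analysed here held their word in 42 of 61 Ighv and in 35 of 48 Igkv. The sequences below come from segments with many tags, with the octamer in capitals and 18 bases on either side.
Ighv7-3: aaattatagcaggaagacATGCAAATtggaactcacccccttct
Ighv1-80: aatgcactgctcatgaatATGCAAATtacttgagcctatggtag
Ighv5-17: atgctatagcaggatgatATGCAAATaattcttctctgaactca
Igkv5-48: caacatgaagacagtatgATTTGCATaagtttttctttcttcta
Igkv9-124: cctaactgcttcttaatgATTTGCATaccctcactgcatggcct
Iglv1: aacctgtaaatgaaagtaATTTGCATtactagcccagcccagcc

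All 6 stretches lie on the minus strand. They are chr12:114117372-114117415 for Ighv7-3, chr12:115876478-115876521 for Ighv1-80, chr12:113823342-113823385 for Ighv5-17, chr6:69704193-69704236 for Igkv5-48, chr6:67919590-67919633 for Igkv9-124 and chr16:18904290-18904333 for Iglv1. The first base of the octamer lay a median of 104 bases before the gene start in Ighv (44 to 136, 48 segments) and 86 bases before it in Igkv (46 to 107, 37 segments).

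**Figure D1:**
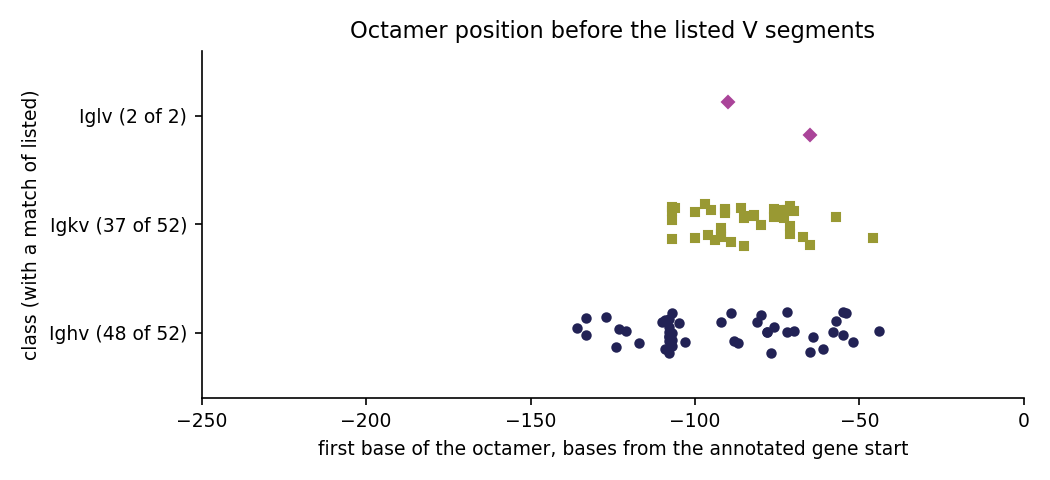
Each point is a listed V segment whose upstream window held the octamer in the orientation of its class, and the x axis gives the bases from the annotated gene start to the first octamer base; points are spread vertically only for legibility. Ighv points lie between 44 and 136 bases before the start, Igkv points between 46 and 107, and the pair of Iglv points at 65 and 90.

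The 19 listed V segments with neither word included Igkv8-30, the kappa segment with the most tags. Of the 19, 16 held a copy of their class's word with 1 base changed, a looser match that 10.4% (ATTTGCAT) and 11.0% (ATGCAAAT) of all annotated genes also had in this window. In 11 of the 16 the change was A1C in ATTTGCAT, with positions counted from 1 at the 5′ end of the word. All 5 listed Igkv8 segments and 5 of the 6 Igkv6 segments carried it, as did Igkv1-88, and none of the Igkv6 or Igkv8 segments held the exact word. The stretches of 3 of these segments, which are among the 10 Igkv with the most tags, show the changed word in capitals.
Igkv8-30: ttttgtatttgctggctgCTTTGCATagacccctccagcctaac
Igkv8-21: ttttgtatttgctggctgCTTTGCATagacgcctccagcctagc
Igkv6-15: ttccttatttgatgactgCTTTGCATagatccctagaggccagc

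These are chr6:70094666-70094709, chr6:70292501-70292544 and chr6:70384051-70384094, on the minus strand, and the word begins 87, 70 and 100 bases before the gene start. A match is a description of the letters and does not show binding.

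Antibody segments were far more abundant in a single library, the tumour labelled MAdCAM1 2, than in the other 3. The 112 genes summed to 2164 tags in IgG 1, 7020 in IgG 2, 7999 in MAdCAM1 1 and 88947 in MAdCAM1 2, from libraries of 14850923 to 16891234 tags. As a share of all tags this was 0.0128% (95% exact binomial interval 0.0123 to 0.0134), 0.0446% (0.0436 to 0.0457), 0.0539% (0.0527 to 0.0551) and 0.560%. These intervals, like all others here, cover counting error only and not the variation between mice. They treat every tag as independent, which amplified reads without molecular identifiers are not, so they may be too narrow. The MAdCAM1 libraries differed from each other by 10.4-fold and the IgG libraries by 3.48-fold, while MAdCAM1 1 exceeded IgG 2 by 1.21-fold. The group shares were 0.307% ± 0.358 (SD, n = 2) for MAdCAM1 and 0.0287% ± 0.0225 (SD, n = 2) for IgG. Their difference of 0.278 percentage points had an exact two-sided permutation p of 0.333 over the 4 libraries, the smallest this design can give, and without MAdCAM1 2 it was 0.0251 percentage points. Both MAdCAM1 shares lay above both IgG shares, but the spread between the MAdCAM1 mice was larger than the difference between the groups.

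**Figure D2:**
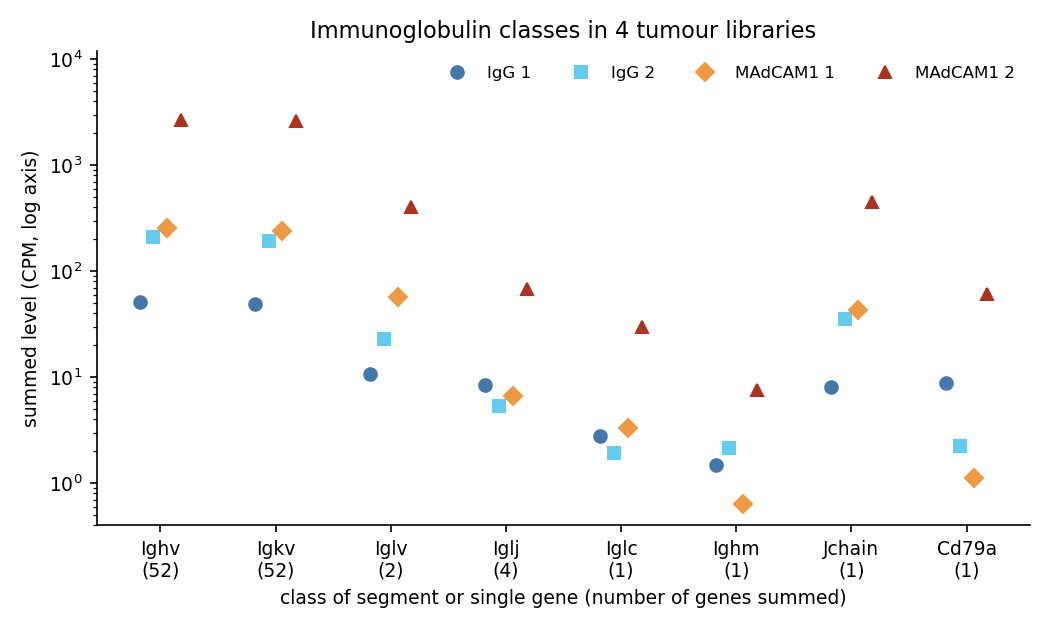
Summed level of each segment class, and of the single genes Jchain and Cd79a, as tags scaled to library size (CPM, log axis), with 1 point per library and no error bars because each point is 1 mouse. MAdCAM1 2 is the highest point of every class, and the order of the other 3 libraries differs between Ighv or Igkv and Ighm or Cd79a.

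Heavy and light chain V segments kept nearly the same proportion in all 4 tumours. Ighv tags numbered 902, 3375, 3633 and 40863 in the order IgG 1, IgG 2, MAdCAM1 1, MAdCAM1 2, which is the order of all values in series below. Tags of the light chain V segments, Igkv and Iglv together, numbered 1040, 3493, 4216 and 46458. Ighv tags per light chain V tag were thus 0.867, 0.966, 0.862 and 0.880. V segments made up 97.8% to 98.2% of immunoglobulin tags in 3 libraries and 89.7% (88.4 to 91.0) in IgG 1, the library with the fewest. There the lambda J segments took 6.79% of immunoglobulin tags, against 1.18% to 1.23% in the others, and Ighm took 1.20%, against 0.113% to 0.499%. These shares count the same tags under both Iglj3 and Iglj3p, and under both Iglj2 and Iglc2. Each gene of these pairs held 2.13% or 2.26% of immunoglobulin tags in IgG 1 and at most 0.588% elsewhere. The departure of IgG 1 in lambda J and V shares is therefore overstated.

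Ighm (chromosome 12, 113382178 to 113386350, GRCm39), the constant gene of IgM and the only heavy constant gene listed, did not follow the V segments. Its tags numbered 26, 35, 9 and 116. MAdCAM1 1 was the lowest library for Ighm, though it was the second highest for Ighv, and the groups overlapped. The log2 fold change was 1.16 (SE 1.17), with an adjusted p of 0.879 in edgeR's quasi-likelihood test. Where the tags counted for Ighm start was not examined.

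Lambda, the minor light chain of mice, gave between 10.7% and 19.5% of the tags of listed light chain V segments. Only 52 of 100 annotated Igkv and 2 of 3 annotated Iglv segments were listed. The lambda share over all V segments may therefore differ. Iglv1 (chromosome 16, 18903767 to 18904250) had 179, 296, 648 and 5141 tags, the most of any listed gene in the sum of the 4 libraries. Iglv2 (chromosome 16, 19079151 to 19079609) had 9, 76, 174 and 1127 tags. Neither segment overlapped between the groups. The lambda share of light chain V tags was 18.1% (15.8 to 20.6), 10.7% (9.65 to 11.7), 19.5% (18.3 to 20.7) and 13.5% (13.2 to 13.8). Each group held a library with a high share and a library with a low share, so the groups overlapped. Within each group the binomial intervals of the libraries did not overlap, but these treat every tag as independent. The kappa share averaged 85.6% ± 5.25 (SD, n = 2) in IgG and 83.5% ± 4.25 (SD, n = 2) in MAdCAM1, a difference of -2.13 percentage points (exact two-sided permutation p = 0.667). It changed sign without IgG 2 (1.58) and without MAdCAM1 1 (0.872). With lambda J and constant tags counted in it was 0.877. No kappa J or constant gene was listed, so that count could raise lambda alone.

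Within lambda, Iglv1 held 95.2% (91.1 to 97.8) of Iglv tags in IgG 1 and 78.83% to 82.02% in the other 3 libraries. The J segments and the constant gene were less abundant than Iglv1 in every library. Iglj2 and Iglc2, with the same values, had 49, 31, 47 and 459 tags. Iglj3 and Iglj3p had 46, 23, 20 and 270, and Iglj1 had 6, 9, 7 and 52. Iglj3 and Iglj3p tags were highest in IgG 1 among the 3 libraries other than MAdCAM1 2, and Iglv1 tags were lowest there.

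Among heavy chain segments, Ighv7-3 (chromosome 12, 114116800 to 114117264) had the most tags, with 53, 110, 391 and 3871. It was the top Ighv segment in both MAdCAM1 libraries, at 10.8% (9.77 to 11.8) and 9.47% (9.19 to 9.76) of Ighv tags, and stood at 5.88% and 3.26% in IgG. Ighv6-6 (chromosome 12, 114398408 to 114398864) was the top segment of both IgG libraries, at 8.43% (6.70 to 10.4) and 10.2% (9.22 to 11.3), and stood at 5.73% and 2.46% in MAdCAM1. In IgG 1 it shared the top place with Ighv10-1, also at 76 tags. Neither share overlapped between the groups, but each was singled out as a top segment of these same libraries and was not tested as a share.

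The libraries agreed little on the segments ranked next. After the top segment, IgG 1 had Ighv10-1 (8.43%) and Ighv7-1 (8.20%), and IgG 2 had Ighv5-6 (8.53%) and Ighv1-64 (8.44%). MAdCAM1 1 had Ighv6-6 (5.73%) and Ighv9-3 (4.35%), and MAdCAM1 2 had Ighv1-80 (5.71%) and Ighv5-17 (5.02%). Ighv5-6 shows how uneven single segments were, with 4, 288, 75 and 566 tags, and Ighv1-64 had 9, 285, 110 and 1092. Both were higher in IgG 2 than in MAdCAM1 1. The other Ighv among the 10 with the most tags were Ighv1-76, Ighv1-39, Ighv1-18, Ighv1-53 and Ighv1-26, which held 1501 to 1794 tags each in MAdCAM1 2 and 4 to 170 in the other libraries.

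**Figure D3:**
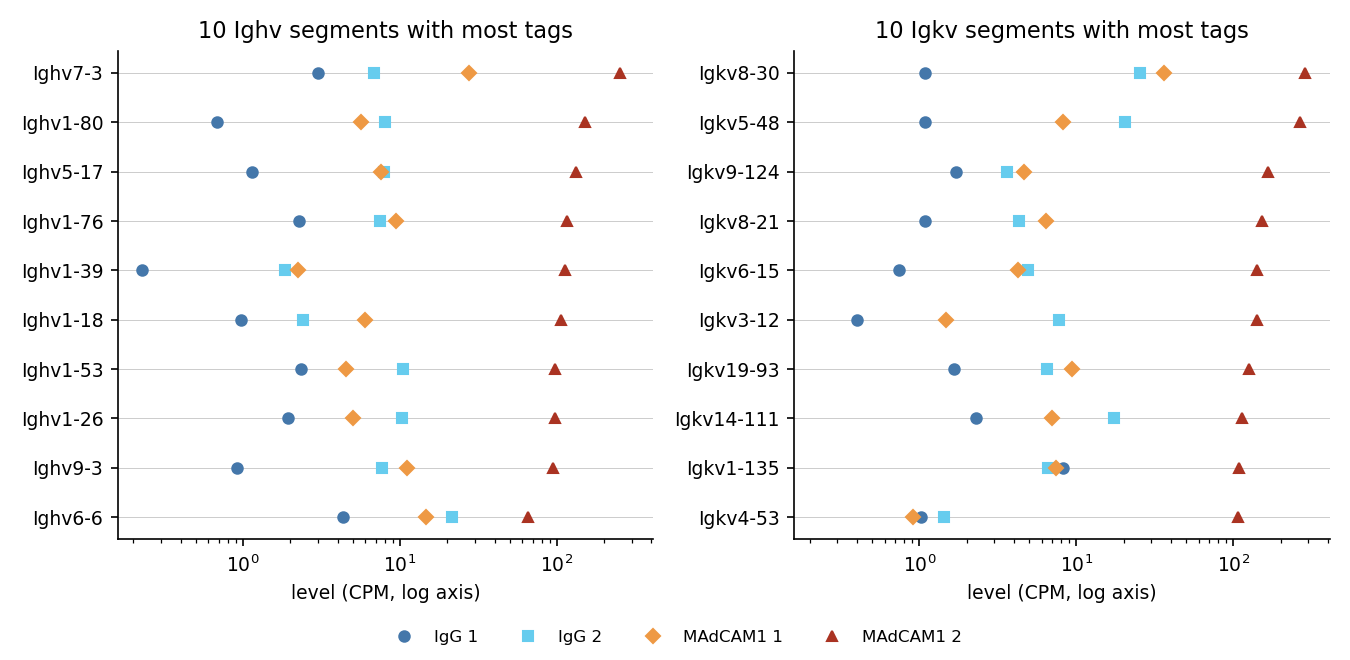
Level in CPM (log axis) of the 10 Ighv and 10 Igkv segments with the most tags, 1 point per library. In all 20 segments MAdCAM1 2 is the rightmost point, from 65.0 CPM for Ighv6-6 to 287.8 CPM for Igkv8-30, and the order of the other 3 libraries changes from segment to segment.

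The kappa segment with the most tags was Igkv8-30 (chromosome 6, 70094045 to 70094604), one of those with the A1C word shown above. It had 19, 411, 518 and 4444 tags, and was the top Igkv segment in 3 libraries, at 13.2% (12.0 to 14.4), 15.3% (14.1 to 16.5) and 11.1% (10.7 to 11.4) of Igkv tags. In IgG 1 it held 2.23%, and the top segment was Igkv1-135 (chromosome 6, 67586697 to 67587492) at 17.02% (14.5 to 19.7). Igkv1-135 had 145, 107, 106 and 1681 tags, so its number hardly differed between IgG 1, IgG 2 and MAdCAM1 1.

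Igkv5-48 ranked second in IgG 2 (10.6%) and MAdCAM1 2 (10.2%), with 19, 332, 117 and 4088 tags. Next after the top segment came Igkv5-43 (11.0%) and Igkv2-137 (7.63%) in IgG 1, and Igkv12-44 (5.51%) and Igkv4-57-1 in MAdCAM1 1, the last tied with Igkv4-57 at 148 tags (4.36%). The third place went to Igkv14-111 (8.94%) in IgG 2 and Igkv9-124 (6.40%) in MAdCAM1 2. Igkv8-21, Igkv6-15, Igkv3-12, Igkv19-93 and Igkv4-53 complete the 10 Igkv with the most tags. They held 1649 to 2352 tags each in MAdCAM1 2 and 7 to 133 in the other libraries.

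By V family, the 29 listed Ighv1 segments held 38.2%, 47.8%, 42.0% and 52.3% of Ighv tags. The Ighv5 family (7 segments) held 9.76%, 18.7%, 13.4% and 11.1%, and Ighv6 (2 segments) 10.4%, 11.5%, 6.72% and 4.84%. On the kappa side, the 12 Igkv4 segments held 6.57%, 9.84%, 20.6% and 12.2%, the 6 Igkv6 segments 5.28%, 5.96%, 9.46% and 13.1%, and the 5 Igkv8 segments 10.2%, 27.3%, 21.2% and 18.8%. Ighv6, Igkv4 and Igkv6 shares did not overlap between the groups, and those of Ighv1, Ighv5 and Igkv8 did. Igkv2 and Igkv14 also did not overlap and, like Ighv6, were lower in MAdCAM1. Ighv4, Igkv11, Igkv13, Igkv17 and Igkv19 did not overlap either and, like Igkv4 and Igkv6, were higher. The groups overlapped in every other family. The families whose shares are given were picked after the shares were seen, so they are described and not tested.

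Place in the locus gave no common order. The 26 listed Ighv segments nearest to the J segments held 61.0%, 50.8%, 58.7% and 46.8% of Ighv tags, and the 26 nearest Igkv held 47.6%, 60.8%, 59.9% and 62.9% of Igkv tags. In both loci the groups overlapped.

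**Figure D4:**
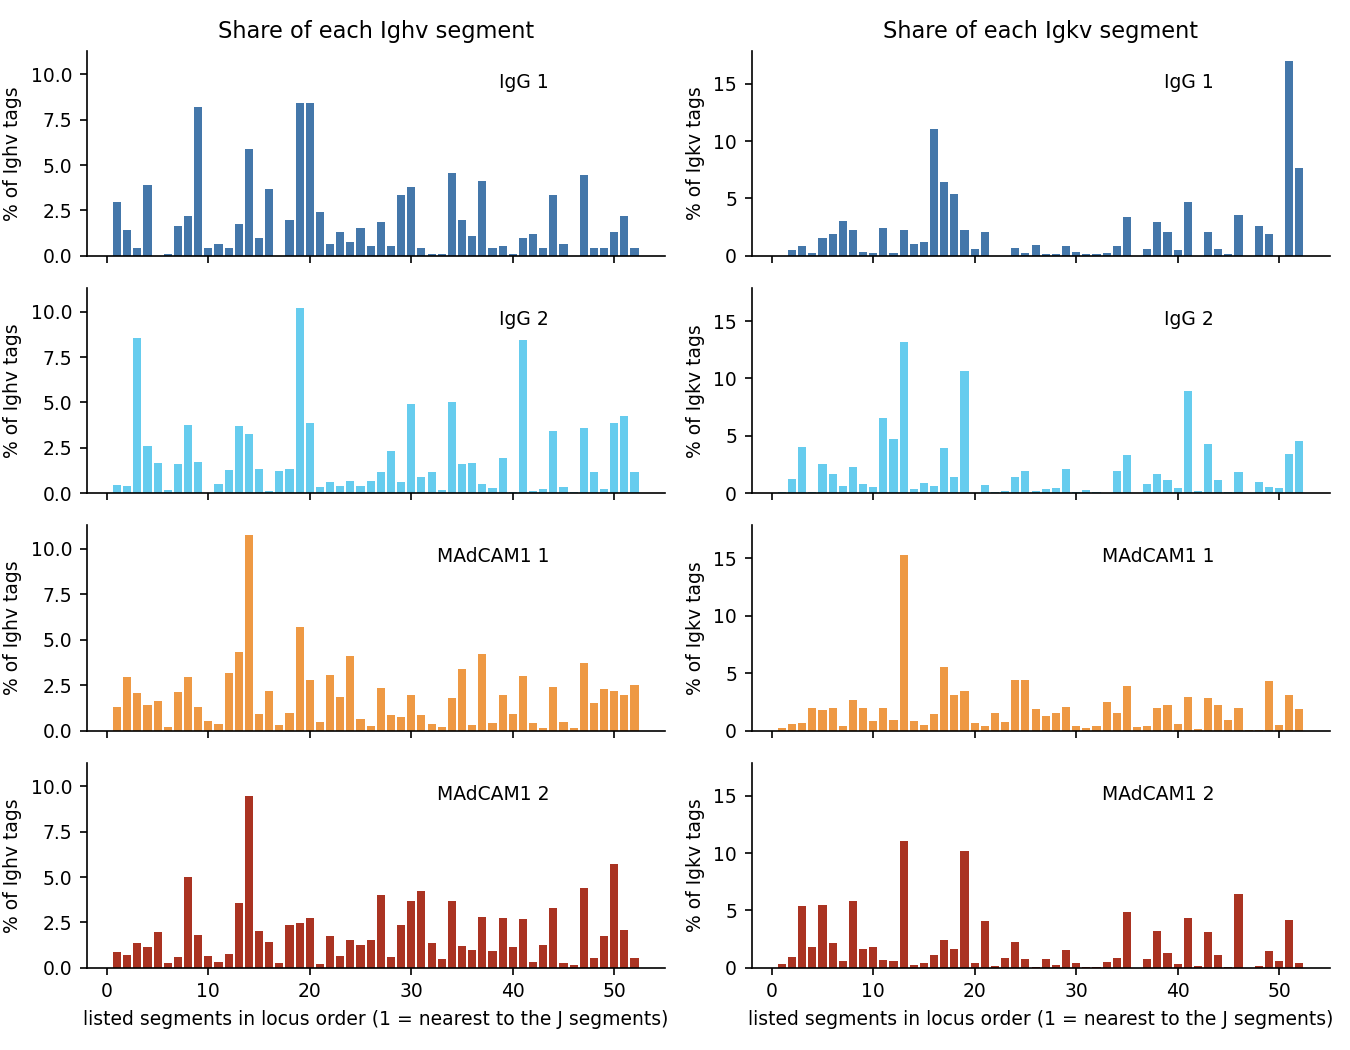
Share of each listed segment among the Ighv (left) or Igkv (right) tags of its library, with 1 bar per segment in locus order and 1 row per library. Ighv7-3 is the tallest Ighv bar in both MAdCAM1 rows (10.8% and 9.47%), and the tallest Igkv bar is Igkv1-135 in IgG 1 (17.02%) and Igkv8-30 in the other rows.

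Among the listed segments, usage was spread more widely in the MAdCAM1 libraries than in the IgG libraries. Which segments are listed was decided by level and reproducibility in these same libraries. Each MAdCAM1 library had tags for all 112 genes, while 10 had no tag in IgG 1 and 3 had none in IgG 2. Segments used in an IgG mouse alone may be missing, so the comparison of spread is not independent of the listing. The effective number of segments, the inverse Simpson index, is the number of equally used segments that would give the same concentration of tags. For Ighv it was 24.1, 22.1, 28.0 and 29.0, and for Igkv 15.3, 17.6, 21.8 and 20.0. The groups did not overlap for either chain, and the differences were 5.41 segments for Ighv and 4.45 for Igkv. The exact two-sided permutation p was 0.333 for each, the smallest the design allows, so neither difference can pass a threshold of 0.05. When 1 library was left out, the differences ran from 4.42 to 6.41 for Ighv and from 3.35 to 5.56 for Igkv. Because the groups did not overlap, no such omission could change their sign.

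Simpler counts over the same listed segments also placed both MAdCAM1 libraries on the side of wider spread, for Ighv and for Igkv. They share the limit of the listing. The 10 leading segments of a library held 55.3% and 56.6% of Ighv tags in IgG, and 45.6% and 47.1% in MAdCAM1. For Igkv they held 65.1% and 64.3% in IgG, and 50.3% and 61.8% in MAdCAM1. At least 50% of Ighv tags came from 9, 9, 12 and 12 segments, and of Igkv tags from 6, 7, 10 and 8. When every library was thinned to the 902 Ighv tags of IgG 1, the expected number of Ighv segments with a tag was 49.0, 49.1, 51.2 and 51.2. Thinned to 852 Igkv tags, it was 45.0, 45.1, 49.9 and 47.1.

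Usage in any pair of libraries overlapped in part. The share of Ighv tags that a pair had in common, summing the smaller of the 2 shares of each segment, was 61.9% to 72.7%, highest between the MAdCAM1 libraries. For Igkv it was 51.1% to 70.7%, highest between IgG 2 and MAdCAM1 2, and the 3 pairs with IgG 1 were the lowest, at 51.1% to 54.4%. Across the 52 segments, Spearman's rho between libraries was 0.459 to 0.624 for Ighv and 0.500 to 0.701 for Igkv, given as a description, since segments share a library and its depth.

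**Figure D5:**
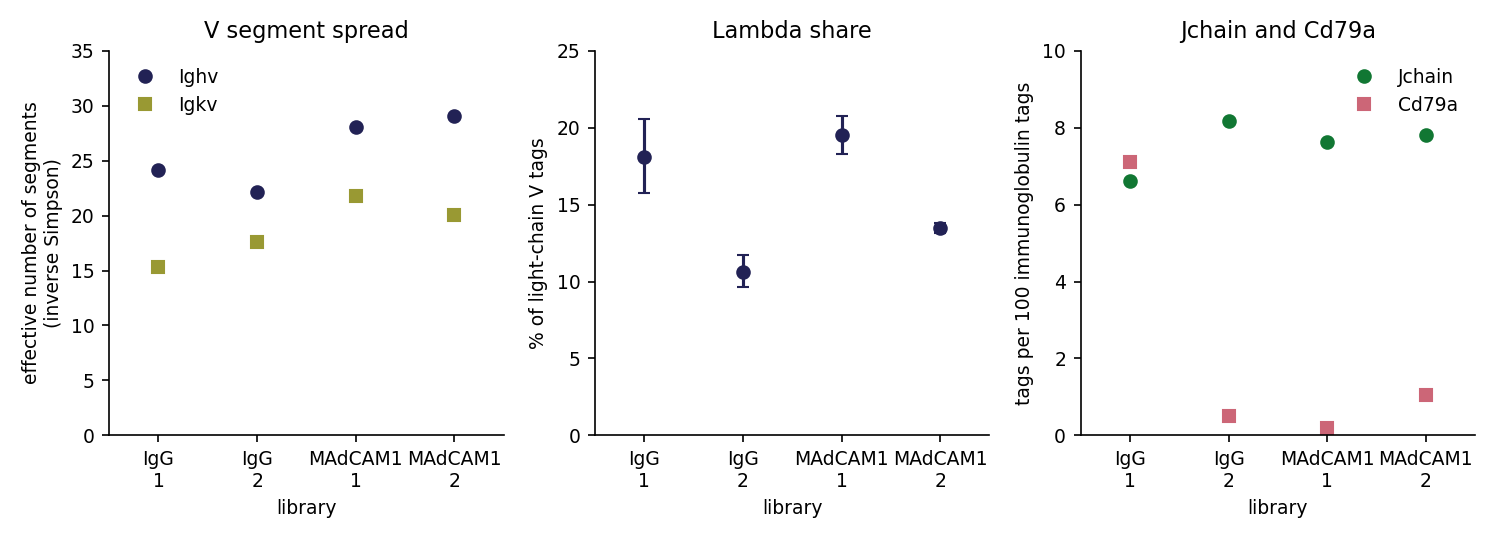
By library: effective number of Ighv and Igkv segments (left), lambda share of light chain V tags with 95% exact binomial intervals for counting error (middle), and Jchain and Cd79a tags per 100 immunoglobulin tags (right). Both MAdCAM1 points lie above both IgG points in the left panel, lambda shares overlap between the groups, and Jchain stays between 6.61 and 8.16 while Cd79a ranges from 0.200 to 7.12.

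Segment by segment, 109 of the 112 genes were highest in MAdCAM1 2, a place held by 24.2% of the 14331 tested genes. The 3 exceptions, picked out after their values were seen except for Igkv4-58, were all kappa segments higher in MAdCAM1 1. Igkv4-58 had 8, 7, 64 and 34 tags, Igkv4-54 had 0, 4, 53 and 53, and Igkv1-99 had 0, 0, 11 and 8. The level in MAdCAM1 2 was a median of 7.58 times that of the next highest library, over 2 times in 101 genes and over 5 times in 80. The extreme was Ighv1-69, also picked after its values were seen, with 4, 7, 6 and 504 tags. At the other end, IgG 1 was the lowest library for 90 genes, and 10 genes had no tag there. IgG 2 lacked 3 of the genes, and each MAdCAM1 library had tags for all 112. Genes came to be listed through these same libraries, so these counts are not independent of the listing.

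Comparing the groups gene by gene, 67 of the 112 stood higher in each MAdCAM1 mouse than in either control, and the reverse held for 0. Of the 102 that passed the filter on low counts these were 62, where 19.7% of all tested genes were higher in this way and 18.7% lower. The 10 that did not pass were 4 Ighv, 5 Igkv and Iglj1. All 102 were higher in MAdCAM1 2 than in both IgG libraries (34.3% of tested genes), and 62 were higher in MAdCAM1 1 than in both (33.9% of tested genes). MAdCAM1 1 therefore decided which segments overlapped between the groups.

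In edgeR's quasi-likelihood test over all 14331 genes, 0 of the 102 tested segments passed an adjusted p of 0.05, as did 0% of all genes. The adjusted p of the segments ran from 0.640 to 0.991. At an unadjusted p under 0.05 there were 42 segments higher and 0 lower, where 5.09% of all tested genes were higher and 1.82% lower. Over both directions the 42 became 10 without IgG 1, 21 without IgG 2, 88 without MAdCAM1 1, 20 without MAdCAM1 2 and 75 with a replicate block. The fitted log2 fold changes of the 102 were all positive, with a median of 3.62 beside -0.001 for all tested genes. Without MAdCAM1 2 the median was 1.16, and 76 of 102 were positive.

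The other tools gave other counts. edgeR's exact test called 18 segments higher (1.03% of all tested genes higher, 0.0628% lower), DESeq2 called 35 higher (1.57% and 0.149%), limma-voom called 0, and no tool called a segment lower. The exact test and DESeq2 shared 15 segments, among them Ighv7-3, Ighv5-4 and Igkv17-127. Without MAdCAM1 2, the exact test called 9 segments higher (0.421% of all genes) and DESeq2 called 1, Igkv12-89 (0.359%). These calls rest on MAdCAM1 1 as the only treated mouse, assumed to vary as the IgG mice do.

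The 10 segments with the smallest p in the quasi-likelihood test did not overlap between the groups. With 2 libraries per group a small p goes with such separation, so this is not a separate result. Ighv5-4 had 13, 13, 108 and 285 tags, a log2 fold change of 4.06 (SE 0.594, adjusted p = 0.640). Igkv17-127 had 16, 16, 147 and 595 tags, a log2 fold change of 4.67 (SE 0.806, adjusted p = 0.665). DESeq2 and the exact test called both higher, and each was several times higher in MAdCAM1 1 than in either IgG library. Ighv1-7 had 12, 13, 67 and 276 tags, Ighv1-9 had 7, 23, 150 and 637, and Ighv1-78 had 4, 7, 83 and 712. The remaining 4 beside Igkv4-58 had at most 3 tags in either IgG library, so that their fold change is poorly fixed. They were Igkv12-89 (2, 0, 84 and 194 tags), Igkv9-123 (1, 3, 31 and 36), Igkv1-88 (1, 2, 13 and 35) and Igkv6-13 (2, 2, 68 and 716).

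The segments with the most tags were not those with the smallest p. Ighv7-3 had a log2 fold change of 4.83 (SE 1.29, adjusted p = 0.691), Iglv1 one of 3.73 (SE 1.09, adjusted p = 0.691), and Igkv8-30 one of 3.62 (SE 1.76, adjusted p = 0.760). The exact test called Ighv7-3 (adjusted p = 0.0172) and Iglv1 (adjusted p = 0.0486) but not Igkv8-30 (adjusted p = 0.713), whose IgG libraries were far apart. DESeq2 called Ighv7-3 (adjusted p = 0.0355) and not Iglv1 (adjusted p = 0.124).

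Jchain stood in nearly the same proportion to the segments in all 4 libraries, while Derl3, Pou2af1, Cd79a and Cd79b varied more. Jchain, the plasma cell gene that links IgA and IgM units, had 6.61, 8.16, 7.63 and 7.81 tags per 100 immunoglobulin tags, while the immunoglobulin tags themselves ranged from 2164 to 88947. Mzb1, a plasma cell chaperone, had 0.231, 0.0997, 0.237 and 0.152. These rest on 5, 7, 19 and 135 tags, too few in IgG to show a departure from the segments. Derl3, which acts in the disposal of misfolded secretory proteins, had 1.34, 0.456, 0.375 and 0.180, and Pou2af1, which encodes OCA-B, had 0.601, 0.185, 0.100 and 0.132. Cd79a, which signals for the B cell receptor, had 7.12, 0.513, 0.200 and 1.05, and its partner Cd79b had 1.11, 0.0997, 0.05001 and 0.0832. Derl3, Pou2af1, Cd79a, Cd79b and Ighm were each highest relative to the segments in IgG 1. All of these but Derl3 were lowest in MAdCAM1 1, on 8 tags of Pou2af1, 16 of Cd79a, 4 of Cd79b and 9 of Ighm. Ms4a1, Rag1 and Rag2 were not listed among the genes analysed here.

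In 8 lists of related genes the quasi-likelihood test called 0 members. At an unadjusted p under 0.05 it found 3 plasma cell markers, 3 folding and export genes, 1 gene for IgA switching and homing, and 1 immunoglobulin receptor, where 5.09% of all tested genes were higher and 1.82% lower. The calls of the other tools are named below, and counts of list members that stood higher or lower in both MAdCAM1 libraries are to be read against 19.7% and 18.7% of all tested genes. Of 14 plasma cell markers 12 were in the table and 10 were tested. Among these, 5 were higher and 0 lower in both MAdCAM1 libraries (19.7% and 18.7% of all tested genes), and their median log2 fold change was 1.02. The summed CPM of the plasma cell markers was 831.2 in IgG 1, 810.4 in IgG 2, 819.2 in MAdCAM1 1 and 1356 in MAdCAM1 2. Most of the sum in every library came from Sdc1, Xbp1 and Txndc5, at 381.2, 243 and 168.2 CPM in IgG 1. Jchain stood at 8.14, 35.4, 42.7 and 449.6 CPM, which the sum does not show. Of the tested markers, only Sdc1 (-0.29) and Prdm1 (-0.60) had negative log2 fold changes. Fkbp11 had the smallest quasi-likelihood p of these markers, with 213, 240, 372 and 353 tags. Its log2 fold change was 0.86 (adjusted p = 0.671), and unlike Jchain it was about equal in the MAdCAM1 libraries. Of 18 B cell markers 6 were in the table and tested, with 1 higher in both MAdCAM1 libraries. It was Blnk, with 730, 531, 675 and 769 tags and a log2 fold change of 0.38. The 6 markers summed to 59.1, 41.0, 50.5 and 135.2 CPM, of which Blnk gave 41.6, 32.8, 47.3 and 49.8. All 6 were highest in MAdCAM1 2, a place held by 24.2% of all tested genes. The 6 and their sum include Ighm, itself an immunoglobulin gene described here, so they are not independent of the segments. Of 14 T cell markers 7 were in the table, with sums of 38.8, 57.9, 23.5 and 52.7 CPM and a median log2 fold change of 0.11 over the 6 tested. Of the tested T cell markers, 0 were higher and 1 was lower in both MAdCAM1 libraries. The lower marker was Zap70, with 229, 505, 116 and 152 tags and a log2 fold change of -1.30. T cell receptor segments, 11 in the table, made up 0.00124%, 0.000496%, 0.000310% and 0.000723% of tags, highest in IgG 1. The part of a differing number of plasma or B cells in the segment levels was not tested.

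Genes that rearrange, carry or fold antibodies, or attract the cells that make them, had median log2 fold changes nearer to 0 than the segments. Of 18 genes for V(D)J recombination and class switching, 14 were tested, with 0 higher (19.7% of all tested genes) and 3 lower (18.7%) in both MAdCAM1 libraries and a median log2 fold change of -0.11, so the lower count is near the background. Of 11 immunoglobulin receptor genes, 9 were tested, with 2 higher and 0 lower, the first near the background of 19.7%. Pigr, the epithelial receptor that carries IgA into the gut lumen, had 5331, 3182, 9379 and 9077 tags, a log2 fold change of 1.31 (SE 0.263, adjusted p = 0.665), and was called higher by DESeq2 (adjusted p = 0.00141) as well as by the exact test (adjusted p = 0.0327). Pigr was about equal in the MAdCAM1 libraries, which the segments were not. Of 22 genes for IgA switching and gut homing, 12 were tested and 3 were higher in both MAdCAM1 libraries, near the background of 19.7%, among them Ccl28, called by the same pair of tools. Tnfsf13, which encodes the plasma cell survival factor APRIL, had 240, 83, 329 and 339 tags and was called by neither. Cxcl13, a B cell attractant, had 36, 37, 44 and 377 tags and was high in MAdCAM1 2 alone. Of 15 genes for protein folding and export, 8 were higher (19.7% of all tested genes) and 1 lower (18.7%) in both MAdCAM1 libraries. DESeq2 alone called Edem1 higher, with 1175, 937, 1489 and 1885 tags (log2 fold change 0.86, adjusted p = 0.0198), and of 7 surrogate light chain and pre-B genes only Cd93 was in the table (log2 fold change -0.08).

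The label of colon tissue was checked on epithelial genes. Epcam stood at 2023 to 3063 CPM and the intestinal gene Vil1 at 102.7 to 174.8 CPM, with both MAdCAM1 libraries above both IgG libraries for each of these genes. Their part in the segment shares was not tested.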

How the data were processed

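Tumour RNA of 4 mice was read by CAGE from random-primed, cap-trapped cDNA, per the labels' protocols. The authors used BWA 0.7.17 and, for what it left, HISAT2 2.0.5 on GRCm39, per the submitters' processing notes. Per the labels, clusters of low level, poor reproducibility or great length were discarded and regions overlapping between replicates kept, so V segments used in 1 mouse may be missing. The deposited values are unscaled counts of tags for each gene, and the step from clusters to genes is not given in the sources used here. Segments were matched to GENCODE by gene ID (all 112, of which 15 carried another ID version). Genes were filtered with filterByExpr (14331 kept), scaled by TMM and compared, MAdCAM1 over IgG, by the robust quasi-likelihood F test (edgeR 4.0.16, R 4.3.3) with Benjamini-Hochberg adjustment over all tested genes. CPM were computed with TMM-scaled library sizes. edgeR's exact test, DESeq2 1.42.0 and limma-voom 3.58.1 were alternatives, as were other scalings, filters, a replicate block and leaving out each library. Each test of single genes was tested on simulated data, and the permutation test was not. Shares were compared by exact permutation over the 4 libraries. Every listed constant, lambda and J gene is named, with the 10 Ighv and 10 Igkv of most tags, each library's top 3 of each and the 10 smallest p. Of the lists, some leading genes are named. Segments and lists were chosen with earlier results of these data known. Nothing in the labels says how many tumours gave each library.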

Additional observations from a re-analysis of the deposited data

How the results depend on the processing

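With 2 mice per group, no permutation p can go below 0.333, and counting error in the shares of segments is widest in IgG 1, with 2164 immunoglobulin tags. The quasi-likelihood test called 0 genes and 0 segments under each scaling and filter and without any 1 library. The exact test called 157 genes and 18 segments, DESeq2 242 and 35. Without MAdCAM1 2, added after seeing the data, the exact test called 72 genes and 9 segments and DESeq2 68 and 1. The cause of this difference between tools was not tested. The median log2 fold change of tested segments, 3.62, ran from 1.16 (without MAdCAM1 2) to 5.17 (without IgG 2) when 1 library was left out, and was 1.16 by the exact test and 1.16 by DESeq2 without MAdCAM1 2. With library size scaling it was 3.53, and that of all genes -0.10. The group difference in immunoglobulin share ran from 0.0251 to 0.531 percentage points over the same omissions. That in kappa share ran from -5.84 to 1.58, reversing without IgG 2 (1.58) and without MAdCAM1 1 (0.872). With lambda J and constant tags, a count added after seeing the data, it was 0.877, but that count could raise lambda alone. The effective number of segments kept its direction under all settings tried, each of which used only listed segments. When 1 library was left out, this was fixed by the lack of overlap between the groups.

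The replicate numbers name different mice, and same-numbered libraries deviated with a correlation of -0.14 across genes. A replicate block called 0 genes and 0 segments (median 3.33, 101 of 102 positive). With the numbers crossed, 0 and 0 were called. The IgA share and the kappa share of constant tags, with their alternatives, were not run, because the genes they need were not listed.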
